A study of Rattus norvegicus with 105 samples.

Results

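The comparison set 10 arrays of rat frontal cortex from animals given clozapine at the low dose level against 9 arrays from animals given vehicle. Its members were taken by their labels, 10 labelled clozapine low and 9 labelled vehicle, 19 of the 105 arrays of the series, and all 31042 probe sets that are not array controls were considered. The series held 3 experiments on the rat cortex, and the 63 arrays of its neuroleptic experiment, in which the drugs were given chronically according to the series title, held 7 groups. Besides the low clozapine and vehicle groups, this text uses the groups given medium clozapine (9 arrays), high clozapine (8 arrays) and low haloperidol (9 arrays). Dose levels are words in the labels, without amounts, and the labels name no strain, age, sex, duration or time of sampling for any of these groups. Whether the arrays stand for separate animals is likewise not in the labels, so each p-value measures only how these samples vary, which may be partly technical.

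Clozapine is an atypical antipsychotic that binds many receptors, among them dopamine, serotonin, adrenergic, muscarinic and histamine receptors, and it occupies dopamine D2 receptors more weakly than the typical antipsychotic haloperidol. Neurons answer synaptic activity and calcium entry with a rapid burst of immediate early genes, which need no new protein synthesis to be switched on: transcription factors of the Fos, Jun, Egr and Nr4a families, and effectors such as Arc, the short form of Homer1 and the neurotrophin Bdnf, which act at synapses. Their transcripts are short-lived, so their level in a piece of cortex depends on what the neurons did shortly before it was taken.

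No probe set differed between low clozapine and vehicle after adjustment. Of 18625 probe sets tested, 0 were called (0%) at an adjusted p under 0.05 in limma with Benjamini-Hochberg adjustment, and the smallest adjusted p was 0.9998, so every probe set described below for this contrast missed the threshold. At an unadjusted p under 0.05 stood 507 probe sets (2.72%), 224 of them higher (1.20%) and 283 lower (1.52%) with low clozapine. The share of 2.72% is below the share of 0.05 that such a threshold passes where no probe set differs. The median standard error of a difference was 0.0993 on the log2 scale. A log2 difference beyond 0.25 was seen for 553 probe sets (2.97%) and beyond 0.5 for 38 (0.204%), and in 0 probe sets (0%) did the 10 low clozapine arrays lie clear of the 9 vehicle arrays. With each gene represented by its probe set of highest mean level, 10128 genes were tested, of which 4862 (48.0%) were above 0 and 5266 (52.0%) below 0 in the log2 difference, low clozapine minus vehicle.

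All values below are log2 intensities on a quantile-normalised scale, and a difference is low clozapine minus vehicle unless another group is named. The sample numbers in the array titles were divided into 4 runs of 16 consecutive numbers. These runs held 71.5% of the variation along the first principal component of the 63 arrays, and the 7 groups held 8.56% of it. Both groups had at least 2 arrays in each run, so differences are also given within runs. With runs as a term in limma, 779 probe sets (4.18%) stood at an unadjusted p under 0.05 for low clozapine against vehicle. The smallest adjusted p was then 0.474, and 0.374 with array weights in place of runs, again with 0 calls (limma). In the fourth run, the low clozapine arrays numbered 9 and 10 (sample numbers 57 and 58) stood apart: their mean correlations with the other arrays of the experiment were 0.965 and 0.970, against at least 0.973 for the other arrays of these 2 groups. Values that rest on them are also given without them. The cortical markers Slc17a7, Neurod6, Tbr1 and Cux2 were measured in both groups, with medians between 11.2 and 15.0 in the low clozapine group and between 10.7 and 14.8 in the vehicle group, and their differences lay between 0.03 and 0.22. Because the tissue was analysed in bulk, fewer cells of a type and less RNA per cell cannot be told apart.

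The immediate early genes stood mostly above vehicle. Of the 22 genes on this list, 19 were measured and 15 passed the filter on low values. Fosb, Fosl1, Fosl2 and Egr3 were below the filter, and Npas4, Btg2 and Nptx2 had no probe set named for them alone. Of the 15 tested, 12 were higher and 3 lower with low clozapine, 0 were called, and their median difference was 0.25, against -0.0034 over all 10128 genes. At an unadjusted p under 0.05 were 6 members (2.86% of all genes), of which 5 were higher (1.12% of all genes) and 1 lower (1.75% of all genes). The median stood at 0.25, 0.19, 0.31 and 0.28 within the 4 runs, and at 0.25 without low clozapine arrays 9 and 10. Of the 15 genes, 8 were higher within every run, against 438 (4.32%) of all genes, and 0 were lower within every run, against 627 (6.19%) of all genes. The list was chosen with earlier results of these data known and was not tested. Its genes may vary together within an array, so they are not separate counts. The mean over the list's genes ran from 11.47 through a median of 11.92 to 12.20 in the low clozapine arrays, against 11.28, 11.62 and 12.11 in the vehicle arrays. The groups overlapped, with 8 of 10 low clozapine arrays above the vehicle mean.

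The starts of these genes are shown for 3 transcription factors of the list, with the elements through which activity is known to act on such promoters. Windows of 300 bases, most of them before the start, from RefSeq on build GRCr8, were at hand for 11 of the 15 genes. The letters TGACG, a half-site of the cAMP response element, were searched on both strands and were present in the windows of 10 of the 11 genes, against 21.2% of all 33469 windows. Dusp1 and Jund, which were not higher with low clozapine, are among the 10. The CArG box, the core of the serum response element, was present in 2 of the 11, against 1.64% of all windows. A gene counted if any window listed for it held the match, whereas these shares count single windows, so the measures differ. Capitals mark TGACG, written CGTCA where it lies on the other strand, and the CArG box, which overlaps no TGACG here. A match is a description of the letters and not evidence of binding.
Egr4, chr4:119607768-119608067, minus strand, TGACG at 2 places and no CArG box: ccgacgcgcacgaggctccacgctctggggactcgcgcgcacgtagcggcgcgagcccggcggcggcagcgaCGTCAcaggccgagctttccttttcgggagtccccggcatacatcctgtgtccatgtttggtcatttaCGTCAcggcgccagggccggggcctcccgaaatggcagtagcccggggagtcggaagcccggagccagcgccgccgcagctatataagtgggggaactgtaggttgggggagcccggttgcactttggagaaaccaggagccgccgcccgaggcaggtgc
Egr2, chr20:21054392-21054691, minus strand, TGACG at 1 place and 1 CArG box: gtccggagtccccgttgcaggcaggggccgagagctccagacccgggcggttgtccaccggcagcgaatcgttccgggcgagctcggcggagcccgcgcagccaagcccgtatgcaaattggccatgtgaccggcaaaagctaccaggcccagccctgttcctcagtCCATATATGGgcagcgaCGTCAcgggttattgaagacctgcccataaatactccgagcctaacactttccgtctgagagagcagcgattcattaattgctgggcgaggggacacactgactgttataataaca
Nr4a1, chr7:134259888-134260187, plus strand, TGACG at 4 places and no CArG box: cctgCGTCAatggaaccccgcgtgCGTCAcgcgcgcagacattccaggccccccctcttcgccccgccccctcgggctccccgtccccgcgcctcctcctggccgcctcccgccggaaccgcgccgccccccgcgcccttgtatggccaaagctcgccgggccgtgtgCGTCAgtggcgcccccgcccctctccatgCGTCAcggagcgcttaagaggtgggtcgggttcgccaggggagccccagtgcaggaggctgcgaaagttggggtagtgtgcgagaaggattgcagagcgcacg

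Among the Egr family of zinc finger transcription factors, Egr4 ran from 10.94 through a median of 11.35 to 11.49 in the low clozapine arrays, against 10.39, 10.83 and 11.13 in the vehicle arrays. All 10 low clozapine arrays were above the vehicle mean and 9 of them above the highest vehicle array, so the overlap came from 1 low clozapine array. The difference was 0.43 ± 0.113 (standard error), with a 95% interval of 0.20 to 0.65 that is not adjusted for the number of probe sets tested. Within the runs the difference stood at 0.51, 0.32, 0.31 and 0.59. Egr1 ran from 13.89 through 14.68 to 15.17 with low clozapine, against 13.46, 14.10 and 14.67 with vehicle, and differed by 0.48 ± 0.173. Low clozapine arrays 9 and 10 were the highest for Egr1, at 15.17 and 15.16, and without them its difference was 0.34. Egr2, whose window carries both elements, had the wider spread: 8.58, 10.40 and 11.45 with low clozapine against 8.62, 9.48 and 10.67 with vehicle, a difference of 0.68 ± 0.337. Arrays 9 and 10 were again the highest, at 11.30 and 11.45, and without them the Egr2 difference was 0.40.

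Fos, which pairs with Jun proteins to form the AP-1 factor, had the largest difference on the list, 0.89 ± 0.377, and also the largest standard error. Its lowest, median and highest values were 9.38, 11.23 and 11.66 in the low clozapine arrays, against 8.46, 10.07 and 11.93 in the vehicle arrays. The highest single value belonged to a vehicle array, so 0 low clozapine arrays exceeded the vehicle maximum although 7 of 10 exceeded the vehicle mean. The other AP-1 members did not share one direction. Junb differed by 0.25 ± 0.187, Jund by -0.02 ± 0.0924, and Jun by -0.20 ± 0.0631, or by -0.11 ± 0.0977 and -0.08 ± 0.0914 for its other probe sets. For Jun all 10 low clozapine arrays lay below the vehicle mean, with 12.07, 12.26 and 12.40 against 12.22, 12.44 and 12.63 in vehicle arrays, and the groups overlapped. Dusp1, a phosphatase that switches off MAP kinases, differed by -0.03 ± 0.164.

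Arc, whose protein acts in the removal of AMPA receptors from synapses, ran from 10.86 through 11.31 to 12.24 with low clozapine, against 10.28, 10.77 and 11.85 with vehicle. The difference was 0.52 ± 0.268, 9 of 10 low clozapine arrays lay above the vehicle mean, and within the runs it stood at 0.76, 0.56, 0.76 and 0.28. Bdnf, the neurotrophin ligand of the receptor TrkB, ran from 11.31 through 11.68 to 11.83 with low clozapine, against 10.77, 11.35 and 11.62 with vehicle, a difference of 0.37 ± 0.12. All 10 low clozapine arrays were above the vehicle mean of Bdnf and 6 of them above the vehicle maximum. The orphan nuclear receptors were nearer to 0: Nr4a1 differed by 0.29 ± 0.208, Nr4a3 by 0.18 ± 0.15 and Nr4a2 by 0.14 ± 0.153. Without low clozapine arrays 9 and 10, Nr4a3 stood at 0.01 and Nr4a2 at 0.10, and without low clozapine array 2, Nr4a2 stood at 0.06. Ier2, an early response gene, differed by 0.12 ± 0.158.

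Homer1 gives both a long form, which links metabotropic glutamate receptors to the postsynaptic density, and a short activity-induced form that loosens those links. Its 5 tested probe sets did not move alike, and their transcript forms are not named in the files. 1 probe set had the smallest p of any named probe set in the higher direction, with 12.45, 12.87 and 13.70 in the low clozapine arrays against 12.05, 12.26 and 12.77 in the vehicle arrays. It differed by 0.59 ± 0.149, with all 10 low clozapine arrays above the vehicle mean and 7 above the vehicle maximum. Low clozapine arrays 9 and 10 were its highest, at 13.70 and 13.59, and without them the difference was 0.42. A second probe set differed by 0.51 ± 0.202, while the remaining 3 differed by 0.14 ± 0.0978, 0.14 ± 0.0998 and 0.10 ± 0.0671. Without arrays 9 and 10 these 3 Homer1 probe sets stood at 0.05, 0.09 and 0.03. The last of these, the most intense, stands for the gene in the list.

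**Figure D1:**
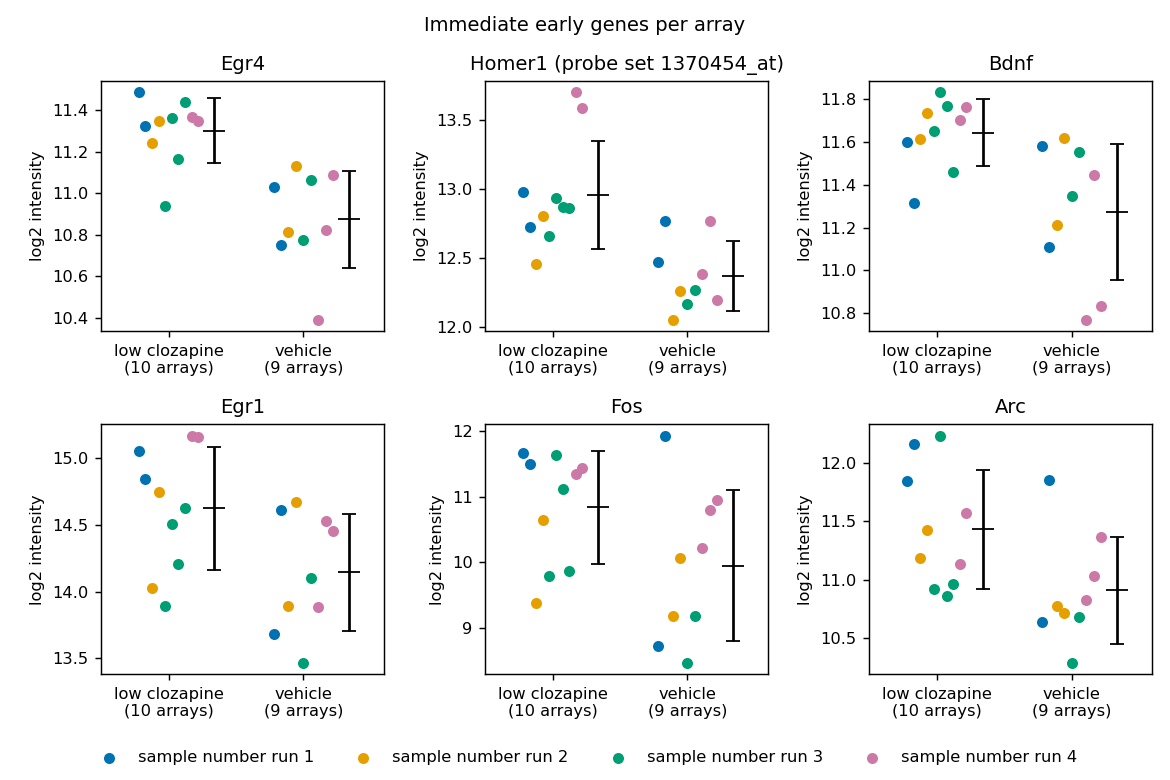
Log2 intensity of 6 immediate early genes that were higher with low clozapine, in each low clozapine (left, 10) and vehicle (right, 9) array. Homer1 is shown by its probe set of smallest p, not by the one that stands for it in the list. Points are arrays coloured by run of sample numbers and bars are the mean ± SD. Egr4 has 9 of 10 low clozapine arrays above every vehicle array, while for Fos the highest value is a vehicle array, and the 2 high points of Homer1 are low clozapine arrays 9 and 10.

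Genes that follow MAP kinase activity and feed back on it were also mostly above vehicle. Of 12 listed, 10 were measured and 9 tested, of which 7 were higher and 2 lower, with a median difference of 0.16 and 0 called. The median was 0.12 with 6 higher without low clozapine arrays 9 and 10, and 0.05 with the stricter filter on low values, which tests fewer genes. Dusp5, a nuclear phosphatase of ERK, ran from 9.39 through 9.66 to 9.78 with low clozapine, against 8.96, 9.28 and 9.50 with vehicle. Its difference was 0.36 ± 0.135, and 9 of 10 low clozapine arrays were above the vehicle maximum. Etv5, an ETS transcription factor downstream of ERK, differed by 0.23 ± 0.0917 but by 0.13 without low clozapine arrays 9 and 10, and Dusp6, a cytoplasmic ERK phosphatase, differed by 0.16 ± 0.0953 for its most intense probe set and by 0.30 ± 0.123 and -0.22 ± 0.301 for the others. The list mean lay above the vehicle mean in 9 of 10 low clozapine arrays. Of the neurotrophin receptors, Ntrk3, the receptor of neurotrophin-3, differed by 0.25 ± 0.149, from -0.44 within the first run to 0.87 within the fourth. Camk1g, a calcium-calmodulin-dependent kinase, differed by 0.25 ± 0.092 with all 10 low clozapine arrays above the vehicle mean, while its list of 16 had a median of 0.0069.

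The named probe sets of smallest p also included genes outside these lists, and whether they share functions was not tested. In the higher direction they were, besides Homer1, Egr4 and Bdnf, the axon guidance ligand Slit1 (0.38 ± 0.109), the DNA ligase Lig1 (0.43 ± 0.122), the CTP synthase Ctps1 (0.22 ± 0.0637), the inositol phosphatase Synj2 (0.26 ± 0.0816), the pseudokinase Trib2 (0.21 ± 0.0695), and single probe sets of Acot7 and Cacng2. Slit1 ran from 9.48 through 9.85 to 10.18 with low clozapine, against 9.14, 9.43 and 9.75 with vehicle, and 7 of 10 low clozapine arrays were above the vehicle maximum. The probe sets of Acot7, an acyl-CoA thioesterase, disagreed, at 0.54 ± 0.145 and 0.05 ± 0.059. Those of Cacng2, the AMPA receptor auxiliary subunit stargazin, stood at 0.60 ± 0.184 and 0.17 ± 0.0975.

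In the lower direction, Aass, an enzyme of lysine breakdown, had 8 of 10 low clozapine arrays below the lowest vehicle array. Its values were 9.08, 9.70 and 9.99 with low clozapine, against 9.90, 10.31 and 10.38 with vehicle, a difference of -0.51 ± 0.136 that was below 0 within every run. Map3k20, a stress-activated MAP3 kinase, ran from 12.00 through 12.17 to 12.29 with low clozapine, against 12.14, 12.41 and 12.63 with vehicle, a difference of -0.25 ± 0.0665. All 10 low clozapine arrays were below its vehicle mean, and within the runs it lay between -0.32 and -0.23, while its second probe set differed by -0.08 ± 0.131. The others were Vps36, a subunit of the ESCRT-II sorting complex (-0.24 ± 0.0665), the COPII coat subunit Sec24d (-0.26 ± 0.0809), Zfp446 (-0.31 ± 0.0918), Amer3 (-0.29 ± 0.0865), Mfsd4a (-0.15 ± 0.0457), Dhrs7 (-0.22 ± 0.0664) and Jun. Atf6, a sensor of unfolded protein, stood at -0.56 ± 0.159 by 1 probe set and at 0.02 ± 0.0864 by the other. The probe set of smallest p in the whole contrast carries no gene name here and was singled out after its values were seen. It differed by -0.81 ± 0.198 and had 8 of 10 low clozapine arrays below the vehicle minimum.

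**Figure D2:**
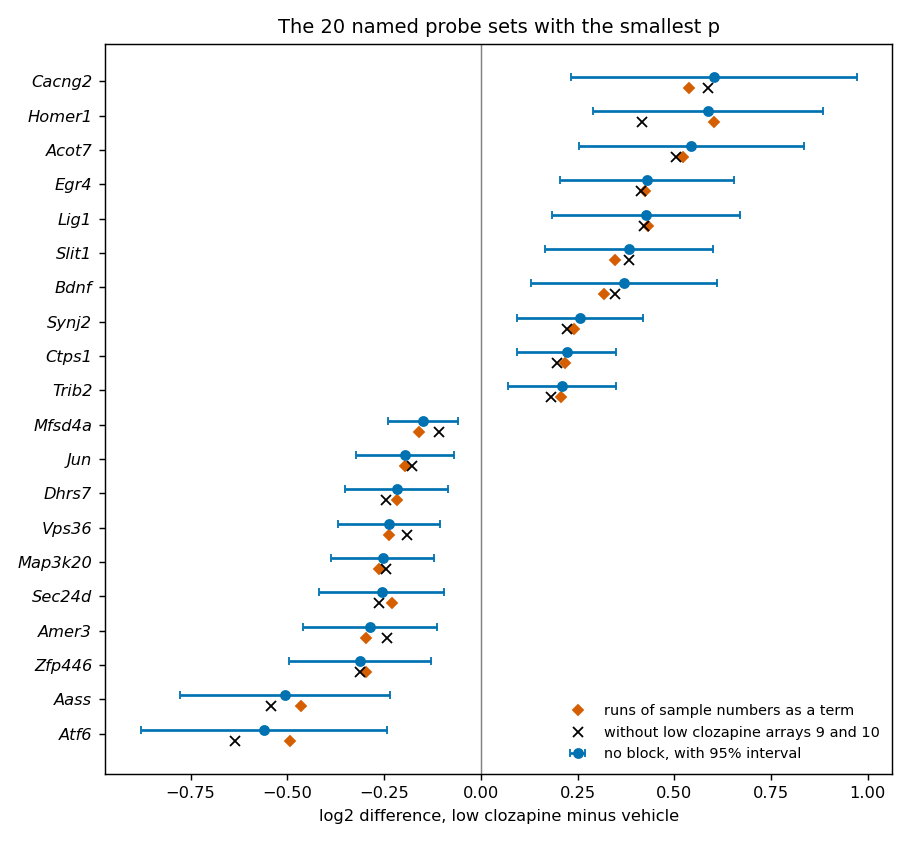
Log2 difference, low clozapine minus vehicle, of the 10 higher and 10 lower named probe sets of smallest p, 1 per row. Circles and bars are the estimate and its 95% interval. Diamonds are the estimate with runs of sample numbers as a term, and crosses the estimate without low clozapine arrays 9 and 10. The rows were picked by their p, and the intervals are not adjusted for that choice. Homer1 stands at 0.59, and at 0.42 without those arrays, while Egr4 stands at 0.43 and 0.41.

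The receptors that clozapine binds showed small differences. Of the serotonin receptors, 13 were measured and 5 passed the filter on low values, and those 5 were lower with a median of -0.09 and 0 called. Htr1a turned to 0.06 without low clozapine arrays 9 and 10 and to 0.03 with array weights, and changed sign in 6 of 19 fits that left out 1 array. Htr2a, the postsynaptic receptor for which clozapine has high affinity, ran from 11.67 through 11.92 to 12.15 with low clozapine, against 11.70, 12.01 and 12.42 with vehicle, a difference of -0.16 ± 0.128. Htr7 differed by -0.13 ± 0.132, Htr2c by -0.09 ± 0.148, Htr5a by -0.08 ± 0.107 and Htr1a by -0.03 ± 0.136. The list mean was below the vehicle mean in 10 of 10 low clozapine arrays, although the groups overlapped, at 10.51 to 10.71 against 10.54 to 10.88. Over all genes, 52.0% were lower.

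Dopamine receptors and signalling genes were evenly divided, with 4 of 8 higher and a median of 0.03. Drd2, the D2 receptor, ran from 8.86 through 9.18 to 10.22 with low clozapine, against 8.77, 9.03 and 9.46 with vehicle, a difference of 0.24 ± 0.145. It stood at 0.90 within the first run and between -0.07 and 0.11 within the others. Its highest value was low clozapine array 1, which was also the highest for the striatal regulator Rgs9, at 10.65, and for the mean of the striatal neuron list, at 11.93 against at most 11.52 in the vehicle arrays. Of the 11 striatal neuron genes tested, 9 were higher, with a median of 0.08 that was 0.28 within the first run and 0.01 to 0.03 within the others. The part of striatal RNA in the Drd2 value was not tested. Of the 10 adrenergic, muscarinic and histamine receptors tested, 7 were higher with a median of 0.06, among them Adra1d (0.19 ± 0.142) and Chrm1 (0.16 ± 0.19).

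The lists of the glutamate synapse lay close to 0 and did not share one direction. The 5 NMDA receptor subunits tested were above 0, with a median of 0.08, and 4 of the 5 were without low clozapine arrays 9 and 10. The NMDA receptor subunits median was 0.03 without low clozapine array 3. Grin2b stood at 0.11 ± 0.125 and Grin3a at 0.12 ± 0.164, and Grin3a at 0.01 without the pair and 0.0088 without vehicle array 6. Metabotropic glutamate receptors had 4 of 6 higher and a median of 0.03, from -0.10 to 0.11 within the runs. Of 23 presynaptic release genes, 19 were higher, with a median of 0.06 that was 0.16 within the first run and -0.01 within the third. The synaptotagmin Syt11 stood at 11.70, 12.21 and 12.48 in the low clozapine arrays against 11.23, 11.82 and 12.18 in the vehicle arrays, or 0.33 ± 0.171. Rims1, an active zone scaffold, differed by 0.23 ± 0.131, and Syp, a vesicle membrane protein, by 0.16 ± 0.0898. Among 22 postsynaptic scaffold genes, 16 were higher and the median was 0.04, with Dlg4 (PSD-95) at 0.22 ± 0.131 and Dlgap2 at -0.26 ± 0.122. AMPA and kainate receptor subunits had 4 of 8 higher and a median of -0.0012, and Grik1 stood at -0.26 ± 0.138. GABA-A receptor subunits had 1 of 8 higher and a median of -0.03. Of 15 interneuron markers, 12 were higher with a median of 0.02, among them Calb2 at 0.20 ± 0.112 and the vesicular GABA transporter Slc32a1 at 0.15 ± 0.0987.

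Sterol and fatty acid synthesis, a programme that antipsychotics are known to induce in cultured cells, was not higher here. Of 24 genes tested, 8 were higher and 16 lower, with a median of -0.03, 0 called, and 3 lower at an unadjusted p under 0.05, where 1.75% of all genes stood. Fdft1, the squalene synthase, ran from 12.76 through 12.91 to 13.03 with low clozapine, against 12.96, 13.01 and 13.25 with vehicle, a difference of -0.13 ± 0.0476, and 10 of 10 low clozapine arrays were below the vehicle mean. Dhcr7, the last enzyme of cholesterol synthesis, differed by -0.20 ± 0.0756, Lss, the lanosterol synthase, by -0.18 ± 0.0862 and the desaturase Fads1 by -0.10 ± 0.0537. Circadian clock genes had 6 of 15 higher and a median of -0.07, and their list mean was above the vehicle mean in 1 of 10 low clozapine arrays. The clock output gene Dbp ran from 12.48 through 12.76 to 12.85 with low clozapine, against 12.54, 12.96 and 13.19 with vehicle, a difference of -0.20 ± 0.0926, and Per3 differed by -0.24 ± 0.158. Broad housekeeping lists lay near 0, with medians of -0.0086 for 62 respiratory chain subunits, -0.00029 for 39 ribosomal proteins and 0.01 for 35 proteasome subunits. Single members at an unadjusted p under 0.05 included Ndufs8 of the respiratory chain, at -0.15 ± 0.0699, and Psmd4 of the proteasome, at 0.16 ± 0.0722.

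**Figure D3:**
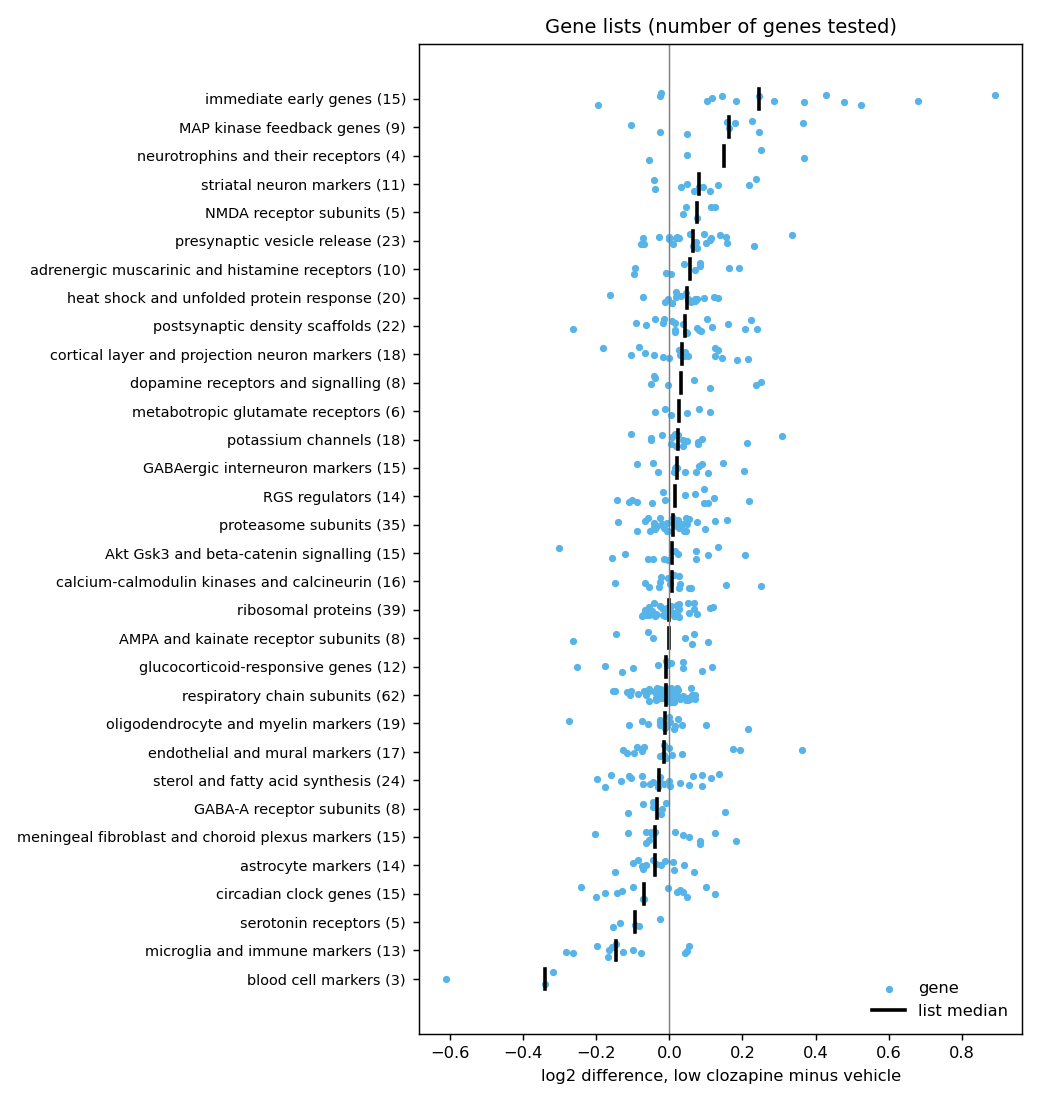
Log2 difference, low clozapine minus vehicle, of every tested gene in 32 gene lists, 1 row per list with the number of genes tested. Points are genes and black bars list medians. Immediate early genes are at the top with a median of 0.25, followed by MAP kinase feedback genes at 0.16, and blood cell genes are at the bottom at -0.34.

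Among genes of non-neuronal cells, the microglia list lay below vehicle. Of 13 microglia and immune genes tested, 3 were higher and 10 lower with a median of -0.14, and the list mean was above the vehicle mean in 2 of 10 low clozapine arrays. C1qa, a complement subunit made by microglia, ran from 12.41 through 12.65 to 12.90 with low clozapine, against 12.68, 12.78 and 13.01 with vehicle, a difference of -0.14 ± 0.0629. Tmem119, a microglial membrane protein, differed by -0.28 ± 0.152, the adaptor Tyrobp by -0.26 ± 0.139 and Cd74, of antigen presentation, by -0.20 ± 0.119. Without low clozapine arrays 9 and 10 the list's median was -0.06 and Tyrobp stood at -0.12, and within the fourth run, which holds them, the median was -0.29. Astrocyte genes had 4 of 14 higher and a median of -0.04, with the gap junction gene Gjb6 at -0.15 ± 0.0847 and at -0.04 without those arrays. Medians of the oligodendrocyte list of 19 and of the endothelial and mural list of 17 were -0.01 and -0.02, but the first was 0.25, 0.29, -0.08 and -0.30 within the runs and the second -0.09, 0.23, 0.01 and -0.21. Without low clozapine arrays 9 and 10, 13 oligodendrocyte genes were higher in place of 7, and 10 endothelial and mural genes in place of 5.

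Red blood cell genes separated those 2 arrays from all others of the comparison. For Alas2, the haem synthesis enzyme of red cell precursors, low clozapine arrays 9 and 10 stood at 7.27 and 7.20, whereas the vehicle arrays ran from 9.26 through 9.84 to 10.08. For the globin gene Hbb they stood at 13.11 and 12.92, with vehicle arrays at 14.96, 15.22 and 15.55. For Hba-a3 they stood at 10.01 and 9.13, with vehicle arrays at 11.44, 11.95 and 12.33. The differences from vehicle were -0.61 ± 0.253 for Hba-a3, -0.34 ± 0.285 for Alas2 and -0.32 ± 0.236 for Hbb. Without those arrays they were -0.18, 0.21 and 0.17, so the signs of Alas2 and Hbb turned. Among endothelial genes, Flt1, a VEGF receptor, was lowest in low clozapine array 9, at 9.45, and stood at 0.36 ± 0.238 over all arrays and 0.51 without the pair.

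Set against the other dose levels, the low clozapine arrays lay between vehicle and medium clozapine for the most variable immediate early genes. Fos averaged 9.95 ± 1.15 in vehicle arrays, 10.84 ± 0.86 at low, 11.97 ± 0.49 at medium and 10.43 ± 0.73 at high clozapine (SD). Arc averaged 10.91 ± 0.46, 11.43 ± 0.51, 12.37 ± 0.81 and 11.45 ± 0.61 in the same order, and Egr2 9.55 ± 0.73, 10.24 ± 0.93, 11.06 ± 0.44 and 9.75 ± 0.34. For these 3 genes the means were highest at the medium level, and the low clozapine arrays overlapped both the vehicle and the medium clozapine arrays. The medium clozapine group had no array in the fourth run of sample numbers. Dose level and run therefore cannot be fully told apart in the means compared here. Egr4 and Bdnf had another shape: Egr4 averaged 10.87 ± 0.23, 11.30 ± 0.16, 11.29 ± 0.15 and 11.06 ± 0.22, and Bdnf 11.28 ± 0.32, 11.64 ± 0.16, 11.68 ± 0.20 and 11.55 ± 0.29, so that the means at low and medium clozapine lay closer to each other than the SD of either. The list's median difference from vehicle was 0.25 at low, 0.45 at medium and 0.15 at high clozapine, 3 comparisons that share the same vehicle arrays.

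**Figure D4:**
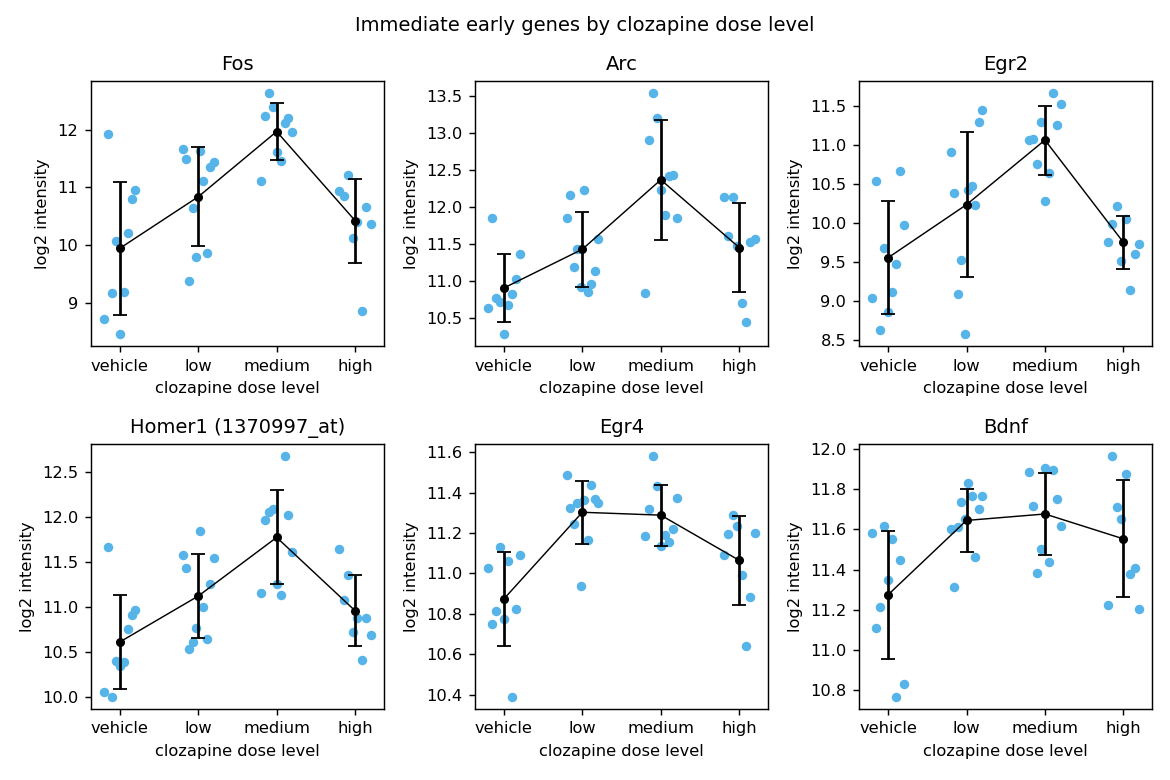
Log2 intensity of 6 immediate early genes by clozapine dose level, from vehicle (9 arrays) through low (10) and medium (9) to high (8). Small points are arrays, black points and bars the mean ± SD, and lines join the means. Fos, Arc, Egr2 and a Homer1 probe set have their highest mean at the medium level, while Egr4 and Bdnf have nearly equal means at low and medium.

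The direct test of low against medium clozapine called 0 of 18625 probe sets (0%) in limma, with 725 (3.89%) at an unadjusted p under 0.05, 276 higher (1.48%) and 449 lower (2.41%). Of the 15 immediate early genes, 2 were higher at low than at medium clozapine, with a median difference of -0.28. Fos differed by -1.13 ± 0.377 and Egr2 by -0.83 ± 0.337 (neither called by limma), and Arc by -0.94 ± 0.268 (adjusted p = 0.809, limma). The smallest adjusted p belonged to Ly86, a partner of a Toll-like receptor relative on immune cells, which averaged 9.18 ± 0.18 at low clozapine and 9.70 ± 0.21 at medium clozapine. It differed by -0.52 ± 0.103 (adjusted p = 0.0764, limma), and by array weights it was the only call, at an adjusted p of 0.0228. With the values as deposited its adjusted p was 0.399 (limma). With runs of sample numbers as a term, the smallest adjusted p of this contrast was 0.226 (limma). Ctps1 differed by 0.26 ± 0.0637 (adjusted p = 0.603) and Lig1 by 0.42 ± 0.122 (adjusted p = 0.819), both higher at low clozapine in limma.

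Low against high clozapine also gave 0 calls (0%) in limma, with 603 probe sets (3.24%) at an unadjusted p under 0.05, 236 higher (1.27%) and 367 lower (1.97%). Ccn2, a matricellular protein also known as a marker of the deepest cortical layer, ran from 11.44 through 11.93 to 12.12 at low clozapine, against 12.20, 12.33 and 12.71 at high clozapine. The difference was -0.48 ± 0.102 (adjusted p = 0.0686, limma). Without low clozapine arrays 9 and 10 it was -0.49 (adjusted p = 0.732, limma). That was the smallest adjusted p of any probe set in this contrast without them. Hba-a3 differed by -1.24 ± 0.261 and Alas2 by -1.37 ± 0.294 (adjusted p = 0.0686 for both, limma), and Hbb by -1.03 ± 0.244 (adjusted p = 0.211, limma). Without those 2 arrays the differences were -0.81, -0.82 and -0.55, each nearer to 0. Sphkap, an anchor of protein kinase A, differed by -0.45 ± 0.118 for 1 probe set, and Lmo2, a blood and vessel transcription factor, by 0.41 ± 0.107 (adjusted p = 0.470 for both, limma). Of the immediate early genes, 12 of 15 were higher at low than at high clozapine, with a median of 0.11.

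**Figure D5:**
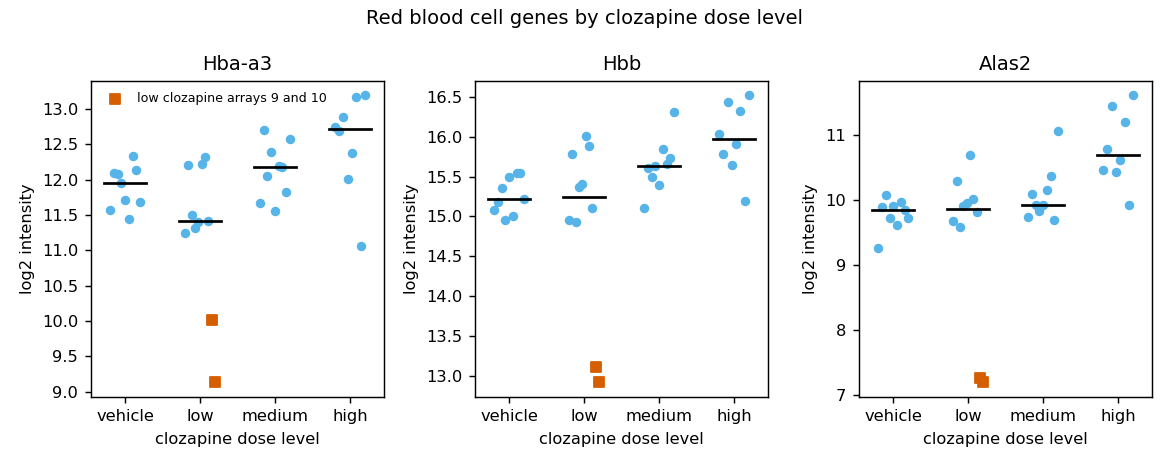
Log2 intensity of Hba-a3, Hbb and Alas2 by clozapine dose level, from vehicle through low and medium to high. Points are arrays, lines are group medians, and orange squares are low clozapine arrays 9 and 10. The squares are the lowest points in every panel, and the high clozapine arrays have the highest medians.

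Low clozapine and low haloperidol share a dose word but not an amount. Between them 0 probe sets (0%) were called by limma, 2.65% were at an unadjusted p under 0.05, 256 probe sets higher (1.37%) and 237 lower (1.27%), and the smallest adjusted p was near 1. With runs of sample numbers as a term in limma, 774 probe sets were at an unadjusted p under 0.05 and the smallest adjusted p was 0.0517, again with 0 calls. The immediate early genes did not separate the drugs at this level, with 7 of 15 higher at low clozapine and a median difference of -0.0014. These values come from the fit without runs as a term. Low haloperidol had no array in the third run of sample numbers, so drug and run were not balanced in them. Egr1 averaged 14.62 ± 0.46 at low clozapine and 14.74 ± 0.40 at low haloperidol, and Egr2 10.24 ± 0.93 and 10.24 ± 0.89. The probe sets of smallest p included Ankrd63 (-0.32 ± 0.085), Ly86 (-0.36 ± 0.103), Acot7 by 1 probe set (0.51 ± 0.145), the ephrin receptor Epha7 by 1 probe set (0.40 ± 0.113) and the sterol desaturase Sc5d by 1 probe set (-0.83 ± 0.238). A difference that misses the threshold does not show that the drugs act alike.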

How the data were processed

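Total RNA of rat frontal cortex was hybridised to Affymetrix arrays. What the authors deposited is a linear intensity for each probe set on each array, made by a step that is not given in the sources used here. These deposited intensities had been scaled, since trimming 2% from both ends left means from 2500.68 to 2500.74 on all arrays. No detection calls were used, and the number of arrays limits the precision.

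Quantile normalisation over the 63 neuroleptic arrays was followed by a floor of 32 and log2 conversion. Leaving aside 57 controls, the 60% of probe sets with the highest mean (18625 of 31042) were tested. limma 3.58.1 in R 4.3.3 fitted 1 mean per group over all 7 groups, with Benjamini-Hochberg adjustment over all 18625 and a call at an adjusted p under 0.05. The script was tested on simulated data. The platform annotation, with symbols matched to RefSeq, named 1 gene for 20826 probe sets, several for 436 and none for 9780. A gene in a list is represented by its probe set of highest mean.

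The members and the 33 gene lists were chosen with earlier results of these data known, so lists carry no test. Named are the 10 probe sets with 1 symbol and the smallest p in each direction (no probe set was called), up to 4 genes of smallest p per list, the immediate early genes, a short list of receptors and activity genes, and up to 5 probe sets in each direction in the other contrasts. Alternatives covered normalisation, floor, transform, filter, groups in the fit, runs of sample numbers, array weights, variance prior, single arrays and, chosen after seeing the data, leaving out low clozapine arrays 9 and 10 together. Figures were drawn with matplotlib 3.10.9.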

Additional observations from a re-analysis of the deposited data

Results flagged for a closer look

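In 8 of 224 sets of values examined, 1 array of a group lay far from the rest, and chance alone flags about 1 in 20 such sets. Low clozapine array 1 was the highest for Drd2 (10.2232), for Rgs9 (10.6486) and for the mean of the striatal neuron list (11.9269), and the lowest for 1 probe set of Cacng2 (10.3455). Low clozapine array 7 was the lowest for Synj2 (11.0419), and low clozapine array 9 the lowest for Flt1 (9.44897). Among vehicle arrays, array 1 was the highest for Fdft1 (13.251) and array 7 the lowest for the mean of the metabotropic glutamate receptor list (11.5637). Low clozapine arrays 9 and 10 together gave the low values of the red blood cell genes, and a rule for single arrays does not mark a pair.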

How the results depend on the processing

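Low clozapine against vehicle gave 0 calls under all 13 alternatives and in all 19 fits that left out 1 array. At an unadjusted p under 0.05 stood 304 probe sets with the stricter filter, 1030 with no filter, 1027 with array weights, 779 with a fixed block of sample numbers and 765 with only these 2 groups, against 507. Low minus medium clozapine gave 1 call with array weights and 0 to 1 without single arrays, the call being made without low clozapine array 2 or 5 or medium clozapine array 3. Low minus high clozapine gave 4 calls with the stricter filter and 0 to 7 without single arrays, 5 of them without low clozapine array 2, 7 without array 6, 5 without array 7 and 5 without high clozapine array 7. No paired analysis was possible because the labels give no replicate numbers that the groups share.

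Differences close to 0 changed sign. Dusp1 stood at 0.0436 with a fixed block and 0.0280 with a random block, and between -0.0911 and 0.0314 without single arrays. Jund stood at 0.0023 with sample number as a covariate, 0.0016 with array weights, 0.0057 without low clozapine arrays 9 and 10, and between -0.0605 and 0.0290 without single arrays. Htr1a stood at 0.0311 with array weights, 0.0638 without that pair, and between -0.0886 and 0.0208 without single arrays. Without the pair, Hbb stood at 0.17, Alas2 at 0.21, the blood list's median at 0.17 and the microglia median at -0.0562. The blood median ran from -0.481 to -0.0921 without single arrays, and the astrocyte median was 0.0047 when each gene's probe sets were averaged. The cause of these shifts was not tested.

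Within single runs of sample numbers, the list medians below moved by at least the SD of the list mean over the vehicle arrays. Each run holds 2 to 4 arrays a group, and how often medians of so few arrays move this far by chance was not tested. In the first run they were 0.22 for adrenergic, muscarinic and histamine receptors, 0.19 for Akt signalling, -0.11 for AMPA and kainate receptors, 0.24 for blood, 0.10 for calcium-calmodulin kinases, 0.27 for dopamine, -0.10 for glucocorticoid-responsive genes, -0.0555 for heat shock, 0.35 for MAP kinase feedback, -0.10 for metabotropic receptors, 0.0354 for microglia, 0.25 for oligodendrocytes, 0.16 for presynaptic release, -0.10 for the proteasome, -0.11 for the respiratory chain, -0.0734 for ribosomal proteins and 0.28 for striatal neurons. In the second run they were 0.0565 for astrocytes, 0.0305 for the clock, 0.11 for cortical layers, 0.23 for endothelium, 0.0786 for interneurons, 0.10 for meninges, 0.29 for oligodendrocytes, 0.11 for ribosomal proteins, -0.30 for serotonin receptors and 0.0287 for striatal neurons. In the third they were -0.13 for adrenergic, muscarinic and histamine receptors, 0.35 for blood, -0.0231 for cortical layers, -0.0613 for dopamine and 0.0106 for striatal neurons. In the fourth they were -0.0808 for Akt signalling, -2.48 for blood, -0.0584 for calcium-calmodulin kinases, 0.0860 for cortical layers, -0.21 for endothelium, -0.0351 for interneurons, -0.29 for microglia, 0.38 for neurotrophins, -0.30 for oligodendrocytes and 0.0141 for striatal neurons.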
